A study of Mus musculus with 6 samples.

Results

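The distal ends of the mouse autosomes were examined as sites of methylated DNA in microglia. A distal end was taken as the last 5 Mb before the largest listed window end of each of chromosomes 1 to 19 (build mm10), a choice by position that used no signal value. The 19 ends cover 95 Mb and held 145648 of the 2915907 windows of 50 bp in which at least 1 of 4 libraries had reads. The first 5 Mb after position 3000000 of the same chromosomes (the centromere side) held 96987 windows, and the chromosome middle between these segments held 2673270. The other 2 windows lie before the centromere side.

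Microglia were compared between peak EAE and naive mice, the naive ones taken before induction. EAE, experimental autoimmune encephalomyelitis, is an immunisation model of multiple sclerosis. All mice were Ccr2rfp/+::Cx3cr1gfp/+ on C57Bl/6, so in every animal 1 allele of Ccr2 held a red and 1 allele of Cx3cr1 a green fluorescent reporter. EAE was induced at 24 to 28 weeks of age with peptide 35-55 of myelin oligodendrocyte glycoprotein (MOG), and the peak was the second day without further worsening after sustained worsening. Cells were sorted on F4/80 and CD45 from tissue of 30 pooled mice per condition. The design text names brains, whereas the extraction protocol names brains and spinal cords. DNA methylation was measured by MiGS, sequencing of fragments isolated with a methyl-CpG binding domain (MBD), in 2 libraries per condition, and RNA by RNA-seq in 1 library per condition. The MiGS libraries are called biological replicates, but no source used here says whether they came from separate pools, so p-values here cover the spread among these 4 libraries, which may be technical.

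Mouse autosomes carry their centromere at one tip, so each has a single long arm that ends in the distal telomere. Most CpG dinucleotides of a mammalian genome are methylated, and the main exceptions are CpG islands at gene starts. MBD capture favours fragments that hold several methylated CpGs, so reads follow both methylation and the density of CpGs, and a lack of reads can mean unmethylated CpGs, few CpGs or sequence that reads cannot be placed on. Gene bodies of CpG-rich regions, promoters of germline genes and the methylated copy of imprinting control regions are known sites of dense methylation in somatic cells.

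Promoter sequences show what was captured at these ends and what was not. The first 3 have the highest mean signal of any distal promoter with reads in all 4 libraries, the next 3 hold the most CG dinucleotides among distal promoters without a read, and the last belongs to the imprinted noncoding RNA Kcnq1ot1 and was added after its values had been seen. Each covers 250 bases before to 50 bases after the gene start, 5′ to 3′ on the gene's strand, from RefSeq (GRCm38.p6), and capitals mark CG.
Tmem267: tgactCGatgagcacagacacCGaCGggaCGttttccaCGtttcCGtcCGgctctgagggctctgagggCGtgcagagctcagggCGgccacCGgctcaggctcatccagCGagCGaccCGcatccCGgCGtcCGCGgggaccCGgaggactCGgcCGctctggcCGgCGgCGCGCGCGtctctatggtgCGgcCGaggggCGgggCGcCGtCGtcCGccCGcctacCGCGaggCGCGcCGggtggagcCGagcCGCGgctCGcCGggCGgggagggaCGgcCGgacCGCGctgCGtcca
Tuba3b: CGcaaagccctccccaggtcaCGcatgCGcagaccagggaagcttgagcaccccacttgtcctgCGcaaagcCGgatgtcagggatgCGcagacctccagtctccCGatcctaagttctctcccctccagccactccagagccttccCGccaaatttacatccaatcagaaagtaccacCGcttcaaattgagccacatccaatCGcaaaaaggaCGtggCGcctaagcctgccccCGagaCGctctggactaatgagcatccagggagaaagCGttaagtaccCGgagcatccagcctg
Tmprss12: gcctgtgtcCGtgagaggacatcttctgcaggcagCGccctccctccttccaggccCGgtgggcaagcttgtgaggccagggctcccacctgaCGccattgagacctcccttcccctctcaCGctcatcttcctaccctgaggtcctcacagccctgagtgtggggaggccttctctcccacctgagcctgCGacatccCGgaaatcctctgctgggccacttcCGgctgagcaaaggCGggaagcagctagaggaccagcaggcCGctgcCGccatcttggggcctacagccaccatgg
Egln1: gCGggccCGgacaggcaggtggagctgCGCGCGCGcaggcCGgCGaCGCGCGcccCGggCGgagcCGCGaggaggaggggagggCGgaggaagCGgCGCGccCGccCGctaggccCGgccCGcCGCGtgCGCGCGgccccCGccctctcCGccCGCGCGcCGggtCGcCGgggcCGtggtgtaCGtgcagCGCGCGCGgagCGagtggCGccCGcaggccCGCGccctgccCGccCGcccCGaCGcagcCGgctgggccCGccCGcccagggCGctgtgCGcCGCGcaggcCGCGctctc
Foxk2: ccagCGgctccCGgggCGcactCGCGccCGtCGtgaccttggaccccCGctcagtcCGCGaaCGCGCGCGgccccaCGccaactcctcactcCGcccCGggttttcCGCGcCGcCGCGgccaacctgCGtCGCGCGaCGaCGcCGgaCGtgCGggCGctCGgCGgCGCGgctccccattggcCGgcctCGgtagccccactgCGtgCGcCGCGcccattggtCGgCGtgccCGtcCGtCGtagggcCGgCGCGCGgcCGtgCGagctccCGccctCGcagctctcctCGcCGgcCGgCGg
Ski: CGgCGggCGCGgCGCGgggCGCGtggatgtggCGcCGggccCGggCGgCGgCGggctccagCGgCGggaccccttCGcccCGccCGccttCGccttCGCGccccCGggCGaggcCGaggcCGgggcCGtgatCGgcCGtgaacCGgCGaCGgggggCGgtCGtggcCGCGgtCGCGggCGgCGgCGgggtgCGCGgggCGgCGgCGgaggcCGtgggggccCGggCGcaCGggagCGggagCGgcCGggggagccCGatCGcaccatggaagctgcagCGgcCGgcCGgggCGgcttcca
Kcnq1ot1: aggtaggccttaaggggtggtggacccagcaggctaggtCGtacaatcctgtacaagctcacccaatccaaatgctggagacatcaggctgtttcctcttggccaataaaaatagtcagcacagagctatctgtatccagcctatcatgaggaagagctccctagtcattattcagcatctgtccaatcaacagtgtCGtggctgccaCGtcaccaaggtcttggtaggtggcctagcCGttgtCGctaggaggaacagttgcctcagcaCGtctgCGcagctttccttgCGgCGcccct
Tmem267 (chr13:119488223-119488522, plus strand), a transmembrane protein gene, holds 50 CG in this stretch. Tuba3b (chr6:145615713-145616012, plus strand), an alpha-tubulin of the testis, holds 16, and Tmprss12 (chr15:100280587-100280886, plus strand), a serine protease of sperm, holds 11. The uncaptured promoters are denser: Egln1 (chr8:124949205-124949504, minus strand), an oxygen-sensing prolyl hydroxylase, holds 60 CG. Foxk2 (chr11:121259737-121260036, plus strand), a forkhead transcription factor, and Ski (chr4:155222486-155222785, minus strand), a co-repressor of TGF-beta signalling, hold 59 each. The Kcnq1ot1 promoter (chr7:143296498-143296797, minus strand) holds 9. CG was searched as these 2 letters, which read the same on both strands. It occurred in 94.97% of the 1769 distal promoters and in 94.8% of all 31396 autosomal promoters of that table, so its presence describes these stretches and singles out none.

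Depth and library character were checked first. The 4 libraries held between 30424742 and 43970332 reads summed over windows, of which 13700660 to 20633033 remained after windows with over 2000 reads in total were set aside. Between 5.46% and 5.76% of these remaining reads were distal. Fragments span several windows, so these sums count a fragment more than once. The second naive library stood apart: its signal was the highest of the 4 in distal ends, middle and centromere side alike, and results are given with and without it. Windows over 2000 reads, 5 of them distal, 272 in the middle and 195 on the centromere side, were left out of signal sums.

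The 5 Mb distal ends were richer in captured windows than the middle as a whole and the centromere side. Signal followed when windows over 2000 reads were left out. Distal ends had 1343 and 1133 windows per Mb in the peak libraries and 1095 and 1074 in the naive libraries. The middle had 1008 and 832 windows per Mb in the peak libraries and 802 and 849 in the naive libraries, and the centromere side 834 and 701 in peak and 677 and 741 in naive. Every library was therefore highest at the distal end and lowest on the centromere side. The ratio of distal ends over middle averaged 1.33 ± 0.046 (SD, n = 4 libraries), with 1.33 and 1.36 in peak libraries and 1.37 and 1.27 in naive libraries. Over the centromere side it averaged 1.57 ± 0.082 (SD, n = 4). Signal per Mb was 1.44 ± 0.040 times the middle and 1.56 ± 0.077 times the centromere side (SD, n = 4 each). With the windows over 2000 reads kept in the sums, the signal ratios turned to 0.713 ± 0.103 and 0.629 ± 0.112 (SD, n = 4), below 1 in all 4 libraries. Without them, all 4 ratios lay above 1 in all 4 libraries, and each exact two-sided sign-flip test over libraries gave p = 0.13, the smallest that n = 4 allows.

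**Figure D1:**
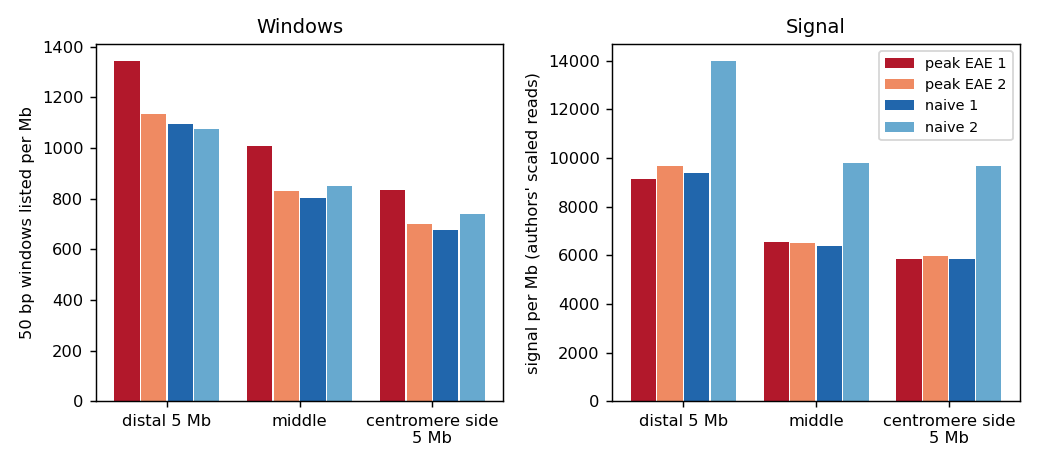
Windows with reads per Mb (left) and signal per Mb (right) in the distal 5 Mb, the middle and the first 5 Mb on the centromere side, with 1 bar per library. Distal bars reach 1074 to 1343 windows per Mb, against 802 to 1008 in the middle and 677 to 834 on the centromere side.

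Distal windows were also listed more often in every library. Of the distal windows, 70717 (48.6%) had reads in all 4 libraries, against 44.0% of middle and 45.1% of centromere-side windows, and 15.5% had reads in a single library, against 19.7% and 20.6%. Unbroken runs of windows covered in all 4 libraries numbered 166 per Mb at the distal ends, 124 in the middle and 104 on the centromere side. Their median length was 200 bp in each segment, so runs were more frequent distally but of like length.

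The excess did not reach the tips. Counted back from the last listed window, the last 1 Mb had 0.69 ± 0.038 times the windows per Mb of the middle (mean ± SD over 4 libraries), and the next Mb 0.98 ± 0.010 times. The third Mb reached 1.44 ± 0.052, and the next 2 Mb 1.77 each. The highest value of the last 20 Mb, 2.10 ± 0.145, was found 7 to 8 Mb from the end. Steps from 5 to 20 Mb, which belong to the middle segment, had 1.22 to 2.10 times the windows of the middle as a whole. The excess was therefore not confined to the last 5 Mb. The last Mb lay above its own chromosome's middle on only 3 of 19 chromosomes and the second on 7, against 13, 14 and 13 for the next 3 and 17 at 7 to 8 Mb. With ends of 2 Mb in place of 5 Mb, the direction turned: the ratio over the middle was 0.83 ± 0.024 for windows and 0.88 ± 0.063 for signal, below 1 in all 4 libraries (SD, n = 4; exact two-sided sign-flip p = 0.13). With ends of 10 Mb the window ratio was 1.67 ± 0.093 and the signal ratio 1.84 ± 0.056 (SD, n = 4). The distal maximum therefore sits several Mb inside the chromosome, with the last Mb below the middle and the second Mb close to it.

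**Figure D2:**
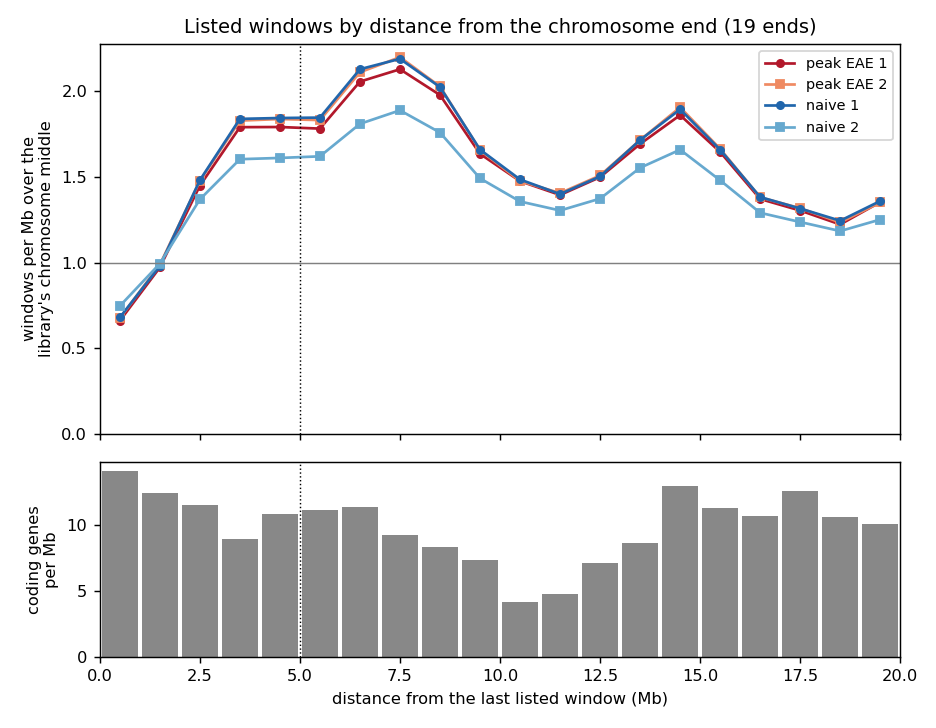
Top, windows per Mb divided by the same library's chromosome middle, in 1 Mb steps back from the last listed window of 19 chromosomes, with 1 line per library; the dotted line marks 5 Mb and the grey line a ratio of 1. Bottom, RefSeq protein-coding genes per Mb at the same distances. Windows are lowest in the last Mb (0.66 to 0.75 of the middle), where coding genes are at 14.1 per Mb.

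Within the last Mb the outermost 200 kb were not the lowest. The last 100 kb had 737 and 671 windows per Mb in peak libraries and 625 and 728 in naive libraries. From 300 to 400 kb inwards there were 516 and 427 in peak libraries and 407 and 480 in naive libraries, the lowest value of the last 2 Mb in 3 libraries, with 513 and 436 in peak and 436 and 528 in naive between 200 and 300 kb. From 1900 to 2000 kb, values of 1462 and 1244 in peak libraries and 1194 and 1158 in naive libraries already passed those of the middle.

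Ends differed widely between chromosomes. On 14 of 19 chromosomes the distal 5 Mb had more windows per Mb than the middle of that chromosome, in each of the 4 libraries. Chromosome 4 stood highest, with 2792 and 2417 windows per Mb in peak libraries and 2359 and 2105 in naive libraries, a mean ratio of 2.75 over its own middle. Chromosomes 11 and 15 followed at 1.99 and 1.92. The 3 lowest were chromosome 18 at 0.281, chromosome 17 at 0.284 and chromosome 3 at 0.359, and chromosomes 12 and 13, at 0.569 and 0.665, were the other two below 1. At chromosome 17, the end had 309 and 259 windows per Mb in peak libraries and 255 and 431 in naive libraries, against 1114 in its middle on average. In the 5 low ends the second naive library had the highest ratio and the other 3 lay close together, whereas the second naive library had the lowest ratio in all of the 14 ends above 1 except chromosome 7.

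**Figure D3:**
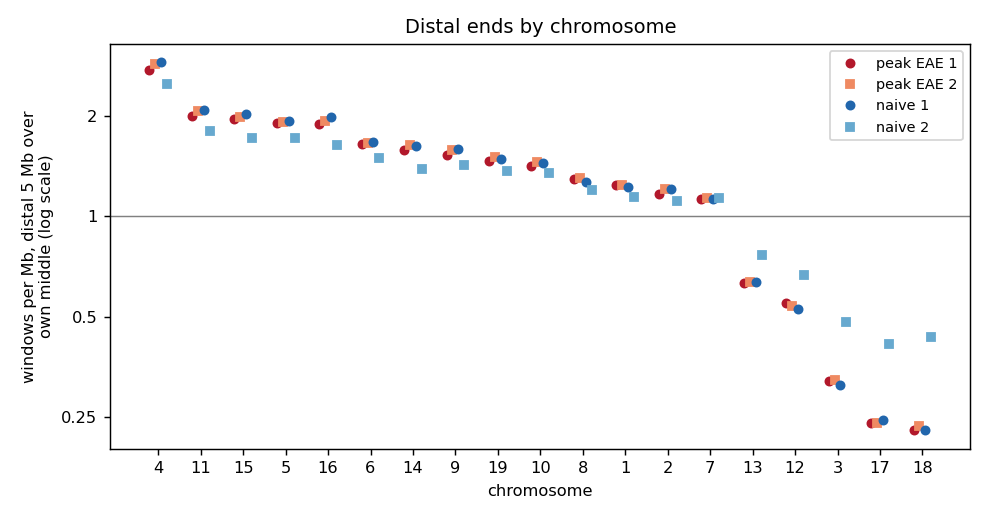
Windows per Mb in the distal 5 Mb over the middle of the same chromosome (log scale), with chromosomes ordered by their mean and 1 symbol per library. The 14 ends of the upper group lie above 1 and 5 below it, down to a mean of 0.281 on chromosome 18; the second naive library is nearer to 1 at both extremes.

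The number of genes at an end went with its windows, but not closely. Distal ends held 1098 protein-coding genes, 11.6 per Mb, against 8.40 in the middle and 9.14 on the centromere side. The lowest ends were gene-poor: chromosome 17 had 4 coding genes in its last 5 Mb, chromosome 18 had 8, chromosome 3 had 13 and chromosome 12 had 15. Chromosomes 10, 15 and 7 had the most, with 162, 132 and 131, yet the ratios of windows were 1.41 and 1.13 at chromosomes 10 and 7. Chromosome 5 reached 1.87 with 40 coding genes. Across the 19 ends, windows and coding genes per Mb had a Spearman correlation of 0.74 and a Pearson correlation of 0.57, and across the 95 distal bins of 1 Mb 0.56 and 0.34; the ends share their libraries and annotation, and these values are descriptions. By distance the pattern went the other way, since coding genes were densest in the last Mb, at 14.1 per Mb, and numbered 8.95 to 12.4 per Mb in the other 4.

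Bins of like gene number were compared as well. Distal bins with 5 to 9 coding genes had 1325 ± 162 windows and those with 10 to 19 had 1639 ± 196 (mean ± SD over 4 libraries; 21 and 23 bins), against 1010 ± 118 and 1206 ± 145 in middle bins of the same classes. The gap was smaller in bins with 1 to 4 coding genes, at 663 ± 69.3 in 28 distal and 626 ± 73.1 in middle bins, and in bins with 20 or more coding genes, at 1443 ± 158 in 17 distal and 1330 ± 148 in middle bins, and bins without coding genes had 282 ± 66.8 distally and 306 ± 84.3 in the middle. A further comparison limited only the middle, to 1119 bins with gene numbers between the quartiles of the distal bins (10.5 and 31 genes). All distal bins stayed in, gene-poor ones included, so distal and middle bins were not matched bin for bin. The distal ratio was then 1.11 ± 0.017 for windows and 1.22 ± 0.056 for signal (SD, n = 4). Against the whole middle it was 1.33 and 1.44. The low last Mb remained within gene classes: its 6 bins with 20 or more coding genes averaged 871 windows, against 1449 in the second Mb, 1931 from 2 to 5 Mb and 2083 from 5 to 10 Mb.

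The highest distal bins lay away from the tips, and the lowest on the gene-poor ends. The bin with the highest mean signal was 3 to 4 Mb from the end of chromosome 10 (chr10:126594951-127594950, 32 coding genes), with 23669 and 31638 in peak libraries and 27916 and 50963 in naive libraries. The bins 3 to 4 and 4 to 5 Mb from the end of chromosome 4, 4 to 5 Mb on chromosome 15 and 1 to 2 Mb on chromosome 11 came next, at mean signals of 28699, 28112, 27460.0 and 27354. All 5 held 2489 to 2806 windows on average. The 5 lowest bins lay on chromosomes 3 and 18 and held 203.75 to 262.5 windows, with 0 to 4 coding genes each. The lowest, 3 to 4 Mb from the end of chromosome 3, had a signal of 1083 and 704 in peak libraries and 781 and 1437 in naive libraries.

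Few distal promoters were captured, and those that were held an intermediate number of CGs. Of 1769 distal promoters, 197 (11.1%) had reads in all 4 libraries, against 9.03% of 28357 middle and 6.85% of 1270 centromere-side promoters, while 80.4% of distal promoters had no read in any library. Distal promoters had 13.8 CG on average, against 12.5 in the middle. The share with reads in all 4 libraries was highest at 10 to 14 CG, with 54 of 168 distal promoters (32.1%) against 22.8% of middle promoters. It was 23.6% distally and 22.3% in the middle at 5 to 9 CG, and 4.38% and 3.42% at 20 to 60 CG. Within 1 Mb of the end, 7.06% of 340 promoters were covered in all 4 libraries, within 1 to 2 Mb 8.55% of 351 and within 2 to 5 Mb 13.3% of 1078. This share, like the windows, was lowest at the tip, but mean signal was not so in every library. With Tmem267 left out, it was 1.19 and 4.34 per window in the last Mb in the second peak and second naive libraries. From 2 to 5 Mb these had 0.880 and 1.29. The first peak and first naive libraries had 0.267 and 0.380 in the last Mb, against 0.731 and 0.878. Promoters of neighbouring and alternative gene starts overlap, and no test was made of these shares.

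**Figure D4:**
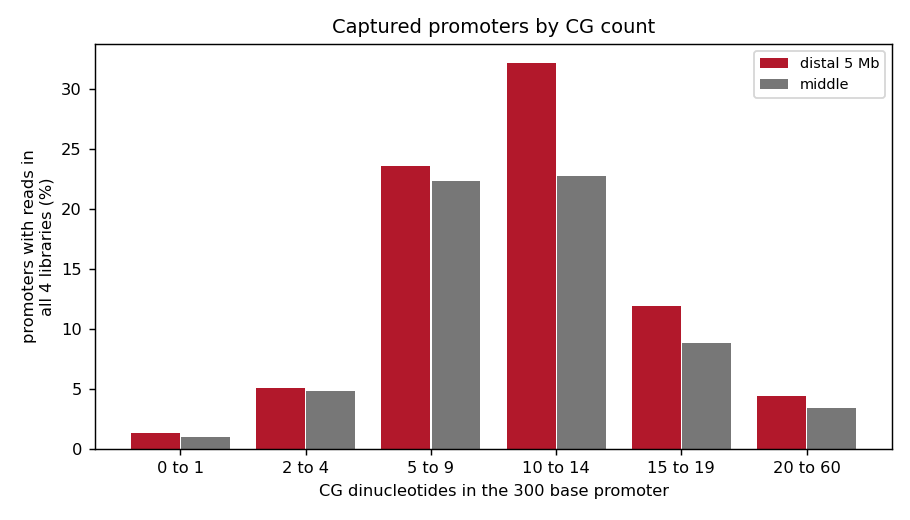
Share of 300 base RefSeq promoters with reads in all 4 libraries, by number of CG dinucleotides, for the distal 5 Mb and the chromosome middle. Both peak between 5 and 14 CG, and the distal share is higher in every class, most at 10 to 14 CG with 32.1% against 22.8%.

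Genes with a captured promoter were mostly silent in the RNA-seq libraries. Among coding genes with at least 10 CG in the promoter, the 52 distal genes with promoter reads in all 4 libraries had a median of 0.0559 FPKM at peak and 0.0814 FPKM in naive microglia, and the 505 distal genes without promoter reads had 6.20 and 6.26 FPKM. An FPKM of 1 or more was reached by 26.9% at peak and 30.8% in naive cells of the first set, against 80.0% and 79.2% of the second. The middle showed the same order, with medians of 0.0651 and 0.0787 FPKM for 488 captured and 6.07 and 6.00 FPKM for 7834 uncaptured genes.

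Among the promoters printed above, Tuba3b and Tmprss12 were captured and without RNA, and the 3 densest were the reverse. Tuba3b had a mean signal per window of 22.5 and 50.5 in peak libraries and 49.1 and 64.9 in naive libraries, and Tmprss12 had 17.4 and 42.9 in peak and 32.4 and 89.1 in naive. Both had 0 RNA-seq counts in both conditions. Egln1, Foxk2 and Ski, with no MiGS read in any library, had 12.7, 17.8 and 56.6 FPKM at peak and 15.5, 23.9 and 67.7 FPKM in naive microglia. Of the 12 highest distal promoters chosen by the same rule, 9 belong to genes with at most 5 RNA-seq counts in each condition. Another 2 belong to genes at 1 FPKM or more in both. The following examples were chosen after their values had been seen. Syce1, of the synaptonemal complex, had a mean signal of 11.2 and 11.1 in peak libraries and 20.9 and 49.4 in naive libraries. Tdrd1, of the piRNA pathway, had 4.49 and 18.9 in peak and 14.4 and 51.1 in naive, and Tex19.1, expressed in germ cells and placenta, 13.1 and 16.0 in peak and 20.6 and 30.2 in naive. Their RNA-seq counts were 0 to 5 per library. The first of the 2 expressed genes was B3galt5, a galactosyltransferase, with a signal of 7.81 and 37.7 in peak and 21.9 and 71.8 in naive libraries and 17.8 FPKM at peak and 18.8 FPKM in naive cells. The other was Dop1b, with a signal of 12.2 and 17.3 in peak and 16.5 and 27.0 in naive libraries and 9.24 FPKM at peak and 9.11 FPKM in naive cells. Kcnq1ot1, also captured in all 4 libraries, had 2995 counts (0.971 FPKM) at peak and 3873 counts (1.47 FPKM) in naive cells.

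The Tmem267 promoter belongs to a pile-up that followed the replicate number in both conditions. It had a mean signal of 9.82 and 222 in peak libraries and 27.6 and 942 in naive libraries. The 5 distal windows over 2000 reads all lie beside it, in a stretch of 27 windows (chr13:119487901-119489250) 826000 bp from the end of chromosome 13. That stretch summed to 1470 and 6209 in peak libraries and 3494 and 20869 in naive libraries. Library 2 exceeded library 1 by 4.23 times at peak and by 5.97 times in naive cells, so the 2 conditions overlapped. RNA-seq gave Tmem267 32 counts at peak and 50 in naive cells.

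Imprinted genes of distal chromosome 7 carried some of the longest covered runs. The longest distal run covered in all 4 libraries spanned 1800 bp (chr7:143459401-143461200) over Cdkn1c, an inhibitor of cyclin-dependent kinases expressed from the maternal copy. The third longest, 1600 bp (chr7:143295051-143296650), overlapped the start of Kcnq1ot1, the paternally expressed noncoding RNA whose promoter lies in the imprinting control region of this domain, and reached into the promoter printed above. That promoter had a mean signal of 4.49 and 14.2 in peak libraries and 10.2 and 30.9 in naive libraries. The other runs of at least 1500 bp lay in Csf2ra (1650 bp), the alpha chain of the GM-CSF receptor, and in Prdm16 and Agap2 (1500 bp each), a transcription factor of brown fat and an Arf GTPase-activating protein. Such runs made up 5 of 15741 distal runs, 64 of 273950 in the middle and 8 of 9879 on the centromere side.

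Of the 21 imprinted genes listed on distal chromosome 7, 15 had reads in their bodies in all 4 libraries and 2, Ins2 and Ascl2, had none. Cdkn1c had the highest signal, at 113 and 300.1 per kb in peak libraries and 219 and 582 per kb in naive libraries. H19, the maternally expressed noncoding RNA beside Igf2, had 78.5 and 104 per kb in peak and 107 and 215 per kb in naive libraries. The growth factor gene Igf2 had 8.98 and 13.8 per kb in peak and 17.5 and 30.0 per kb in naive libraries. In H19, Igf2, Phlda2, Tnfrsf23, Osbpl5 and Ano1 both peak libraries lay below both naive libraries. The same held for 14.9% of all gene bodies tested. In the other tested genes of the list the conditions overlapped, and none of the list passed the test of peak against naive. Cd81, a tetraspanin with 824 FPKM at peak and 765 FPKM in naive cells, had at most 3.05 signal per kb in any library. The median over the 21 genes was 5.08 and 4.27 per kb in peak libraries and 4.96 and 6.12 in naive libraries, below the 11.1 and 10.1 in peak and 10.01 and 10.7 in naive libraries of all 1098 distal coding genes.

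Among named distal genes of at least 1 kb, the gene bodies with the highest signal per kb were mostly short. Ppp1r27, Lkaaear1, Abhd16b, Cdkn1c, Shmt2, Uts2r, Gpr182, Actrt2 and Arhgap9 followed the uncharacterised LOC108167320 of chromosome 9, and means over libraries ran from 161 to 862 per kb. Lkaaear1 (chr2:181696793-181698442), with no RNA-seq count, had 147 and 366 per kb in peak libraries and 297 and 620 per kb in naive libraries. Shmt2 (chr10:127517123-127522444), the mitochondrial serine hydroxymethyltransferase, had 118 and 233 per kb in peak and 206 and 475 per kb in naive libraries. In all 10 of these genes library 2 of each condition was above library 1. Shmt2 was expressed, with 24.2 FPKM at peak and 8.22 FPKM in naive cells, as was Arhgap9, a GTPase-activating protein, with 34.4 and 30.4 FPKM.

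Olfactory receptor genes and immunoglobulin V segments at the ends were mostly without reads, against 524 (22.7%) of all 2308 distal RefSeq genes without any. Gene lengths were not matched, and a short gene has fewer windows in which reads can fall. Of the 300 base distal promoters, 80.4% had no read in any library. Of 91 distal olfactory receptor genes, 78 had no read in any library and 5 had reads in all 4, and 53 of the 54 immunoglobulin heavy chain V segments, all on distal chromosome 12, had none. Of 13 vomeronasal receptor genes 5 had none and 5 had reads in all 4 libraries. All 16 zinc finger protein genes had reads, with medians of 7.61 and 6.73 per kb in peak libraries and 5.95 and 5.64 in naive libraries.

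The last named gene of each chromosome, with small RNA genes and symbols starting in Gm or ending in Rik passed over, was a mixed group with little signal. Of the 19, 17 had reads in all 4 libraries, and Tcstv3, which starts beyond the last listed window of chromosome 13, had none. Signal ran from 0 to 147 per kb with a median of 3.20, and the highest was Ppp2r3d on chromosome 9, a regulatory subunit of protein phosphatase, with 110.2 and 137 per kb in peak and 124 and 217 per kb in naive libraries. Csf2ra was last on chromosome 19, with 21.3 and 34.8 per kb in peak and 26.5 and 36.5 per kb in naive libraries. Cr2, a complement receptor of B cells, was last on chromosome 1 and had 0.567 to 2.25 per kb in the 4 libraries.

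Both reporter loci of these mice lie in the distal end of chromosome 9. Cx3cr1 (chr9:120048683-120068296), the fractalkine receptor of microglia, had 7.68 and 8.87 signal per kb in peak libraries and 9.55 and 13.4 per kb in naive libraries, with 535 FPKM at peak and 1078 FPKM in naive cells. Ccr2 (chr9:124101918-124109140), a chemokine receptor of monocytes, had 2 and 29 reads in peak libraries and 0 and 23 in naive libraries. Its reads followed the replicate number in both conditions.

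No difference between peak and naive microglia was detectable in how far the distal ends stood out from the middle. The log2 ratio of windows per Mb over the middle averaged 0.43 ± 0.022 in peak and 0.39 ± 0.078 in naive libraries (SD, n = 2 each), a difference of 0.04 (exact two-sided permutation p = 1, with 0.33 the smallest possible). For signal the difference was -0.01 (exact two-sided permutation p = 1). Both lie within the spread between libraries, and the sign of either depends on the library left out.

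No distal bin passed the unpaired test of peak against naive. In limma on log2(signal + 1), fitted over all 2394 bins of 1 Mb and adjusted by Benjamini-Hochberg, 0 of 95 distal bins were called higher and 0 lower, as were 0% of all bins in either direction, and 0 distal bins had an unadjusted p under 0.05. The edgeR quasi-likelihood test and DESeq2 on recovered reads called 0 distal bins too. All 95 log2 changes were below 0, from -0.999 to -0.02 with a median of -0.30, and the median over all bins was -0.30 as well. The second naive library was the highest of the 4 in 95 of 95 bins. Both peak libraries were below both naive libraries in 13 distal bins (13.7%), against 13.6% of all bins. After quantile normalization the distal median was -0.01 and 45.3% of distal bins were above 0. Without the second naive library, the distal median was -0.01 with 0 calls, and without the first, 84 of 95 distal bins (88.4%) and 1986 of all bins (83%) were called lower at peak.

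The shift was larger at the tip, and so was the lead of the second naive library; the difference with distance was not tested. The median log2 change was -0.48 in the 19 bins of the last Mb, -0.30 in those of the second and -0.25 in the 57 bins from 2 to 5 Mb. The second naive library over the first had medians of 2.01, 1.56 and 1.44 in the same bins, whereas the first peak library over the first naive library had 0.910, 0.978 and 1.01 and the second peak library over the first naive library 1.07, 1.03 and 1.01. The smallest p of a distal bin, 0.0649 in limma, belonged to the last Mb of chromosome 13 (log2 change -0.63 ± 0.34 SE, adjusted p = 0.883), which had 8473 and 13642 in peak and 9916 and 28095 in naive libraries and holds the pile-up near Tmem267. The next 2 bins, 2 to 3 Mb from that end and the last Mb of chromosome 9, had adjusted p = 0.883 in limma as well.

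**Figure D5:**
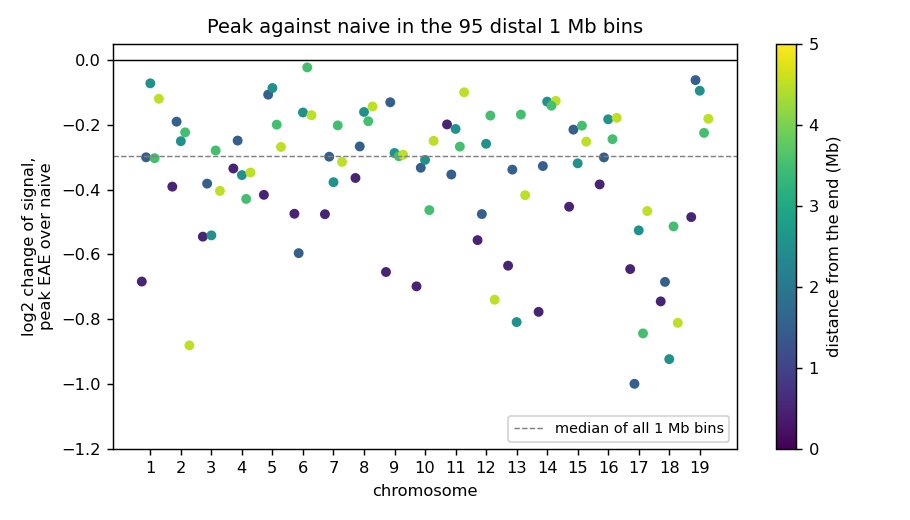
Log2 change of signal, peak over naive, in the 95 distal bins of 1 Mb by chromosome, with colour for distance from the end and a dashed line at the median of all bins (-0.30). All points lie below 0, and the 19 bins of the last Mb have a median of -0.48.

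Single windows and gene bodies gave no distal call in the unpaired test either. Of 936715 windows with at least 20 reads, 52789 were distal, and limma called 0 of these in either direction, against 0% of all windows, with 2242 (4.25%) at an unadjusted p under 0.05 and a smallest adjusted p of 0.818. The distal window with the smallest p had lower values at peak and lay in Hhat, an acyltransferase of hedgehog proteins (chr1:192631851-192631900), with 2.48 and 3.27 in peak and 13.6 and 48.8 in naive libraries. The smallest p with a higher value at peak was in Scn11a, a sodium channel of sensory neurons (chr9:119798451-119798500), with 22.4 and 26.1 in peak and 9.08 and 0 in naive libraries. Neither pair of conditions overlapped, which held for 18.7% of all tested windows in the lower and 16.8% in the higher direction. Among 31680 gene bodies 0 of 1653 distal genes were called in either direction, against 0% of all, with 51 (3.09%) at an unadjusted p under 0.05 and adjusted p of at least 0.954 in limma. Among named genes, Kcnk1, a potassium leak channel, had the smallest p of the lower ones, with a log2 change of -1.25 ± 0.47 (SE). Its signal was 17.4 and 34.0 per kb in peak and 35.5 and 94.2 per kb in naive libraries. Spata45, a spermatogenesis-associated gene, had the smallest p of the higher named genes, with 8.59 and 8.82 per kb in peak and 2.91 and 0.661 per kb in naive libraries. The edgeR test with TMM also called 0 distal windows and 0 distal genes, and DESeq2 called 0 distal genes. Leaving out the first naive library gave 609 distal windows called higher (1.4%, against 1.36% of all windows) and 349 lower (0.802%, against 1.06%). Leaving out the second peak library gave 58 lower (0.146%, against 0.156%), and leaving out the second naive library 11 higher, of 21 over all windows (0.0026%).

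The RNA-seq response at the distal ends was about as frequent as elsewhere. Of 727 distal genes that reached 50 counts in the 2 libraries together, 85 (11.7%) were at least 2-fold higher at peak, against 11.6% of all 14367 genes, and 74 (10.2%) at least 2-fold lower, against 9.35% of all. There was 1 library per condition, so these are differences between 2 libraries, with no test, and intervals below are exact 95% intervals of counting error only. The peak library held 36561934 and the naive library 31282093 counts. Distal coding genes at 1 FPKM or more made up 53.3% at peak and 52.8% in naive cells, against 50.5% and 50.2% in the middle.

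Birc5, Dtl and Nek2, all with roles in cell division, had the largest ratios of peak over naive among named distal genes with at least 200 counts. Birc5 (survivin), an inhibitor of apoptosis needed in mitosis, had 931 counts at peak and 23 in naive cells, 36.1-fold higher (24.4 to 58.4). Dtl, a ubiquitin ligase adaptor acting at replication, had 745 and 23 counts, 28.9-fold higher (19.5 to 46.8), and Nek2, a centrosome kinase, 694 and 24, 25.8-fold higher (17.5 to 41.4). Cdca7l, Troap, the mitotic kinesin Kif15 and the thymidine kinase Tk1 were 15.8-fold to 24.5-fold higher. Irf7, a transcription factor of the interferon response, had 5684 counts at peak and 341 in naive cells, 15.1-fold higher (13.6 to 17.0), and the antiviral membrane protein Ifitm3 had 4644 and 323, 13.1-fold higher (11.7 to 14.7). Soat2, which esterifies cholesterol, was 13.3-fold higher.

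Among distal genes lower at peak, Kl (klotho) had 480 counts at peak and 1769 in naive cells, 4.05-fold lower (3.66 to 4.49). Igf2 had 141 and 489, 3.80-fold lower (3.15 to 4.63), Kcnk1 had 160 and 473, 3.24-fold lower (2.71 to 3.91), and Cdkn1c had 136 and 342, 2.76-fold lower (2.26 to 3.40). Vipr1, a receptor for vasoactive intestinal peptide, Tmtc1, the prostaglandin receptor Ptger3, the adaptor Tns2 and the laminin chain Lama5 were 2.87-fold to 3.23-fold lower. In MiGS the body signal of Igf2 and Kcnk1 was lower in both peak libraries than in both naive libraries, as in 14.9% of all gene bodies tested, that of Cdkn1c overlapped, and none of the 3 passed the test.

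Cell type markers in the same RNA libraries are given beside these values. The 6 microglia markers summed to 8531 FPKM at peak and 12982 FPKM in naive cells, none of them at 0. The 4 monocyte markers summed to 16.4 and 3.50 FPKM, with 3 of 4 at least 2-fold higher at peak. The 4 T cell markers summed to 1.67 and 0.484 FPKM, with Cd3e, Cd3g and Cd8a at 0 in naive cells. Cd3e, Cd3g and Cd8a had only 2, 21 and 9 counts at peak, and the neutrophil marker Ly6g only 2. Neutrophil markers summed to 23.8 and 21.1 FPKM, with Ly6g at 0 in naive cells, astrocyte markers to 13.2 and 32.3 (with Gfap at 1.67 and 0.675, the reverse of the other 2), oligodendrocyte markers to 7.35 and 9.38 (2 of 3 matched), endothelial markers to 9.14 and 20.004 and erythroid markers to 39.5 and 134. In bulk samples fewer cells of a type and less RNA per cell cannot be told apart, and the part of these markers in the results was not tested.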

How the data were processed

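MiGS and RNA-seq files of sorted microglia were used as the authors deposited them. The submitters' processing notes name build mm10 and the tools Bowtie2, TopHat, featureCounts and edgeR, without role or version. The deposited MiGS signal of each 50 bp window was a whole number of reads times a factor per library (100% of values within 0.001), and absent windows were taken as 0. The deposited RNA-seq table holds raw counts and FPKM per gene, per the file headers.

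Segments were measured from the largest listed window end of each autosome. Ratios were taken per library from totals and tested by exact sign-flip or permutation tests. Windows, bins of 1 Mb and RefSeq gene bodies (GRCm38.p6, without strand) with at least 20 reads were fitted over all autosomes with limma 3.58.1 (variance trend) on log2(signal + 1), with Benjamini-Hochberg adjustment at 0.05, two-sided; fold changes are on that scale. The design was fixed for signal, and edgeR 4.0.16 and DESeq2 1.42.0 were run on recovered reads as alternatives. Steps were tested on simulated data. RNA-seq counts were scaled by TMM with 0.5 added; RNA-seq genes were placed by symbol (31647 of 42303 rows). No source used here says whether reads were counted by strand, so values of overlapping genes are uncertain.

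Distal ends, gene lists and tests were chosen with earlier results of these data known. Named features were the 3 highest and lowest ends, the 5 highest and lowest bins, and the 10 highest windows and gene bodies. Bins, windows and gene bodies with the 3 smallest p in each direction were named too, as was the last gene of each chromosome. In RNA-seq the 10 highest and lowest ratios at 200 or more counts were taken. The text gives a selection of these features. Windows within 1000 bp were named once. Gene bodies, promoters and RNA-seq genes with symbols starting in Gm or ending in Rik, small RNA genes and -ps pseudogenes were passed over. R 4.3.3 and Python 3.11.15 were used. Alternatives included other end lengths, thresholds, normalizations and libraries left out.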

Additional observations from a re-analysis of the deposited data

How the results depend on the processing

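Directions of the distal ratios depended on the length of the ends and on the pile-up windows. With 2 Mb ends the ratio over the middle was 0.828 for windows and 0.882 for signal, and over the centromere side 0.941 and 0.859. With windows over 2000 reads kept, the signal ratio was 0.713 over the middle and 0.629 over the centromere side, since most such windows lie outside the distal ends. All other alternatives kept the 4 ratios above 1, from 1.11 (middle bins of like gene number, windows) to 2.09 (10 Mb ends, signal over the centromere side). Leaving out each library in turn gave 1.32 to 1.35 and 1.56 to 1.61 for windows over middle and centromere side, and 1.43 to 1.46 and 1.54 to 1.59 for signal.

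The log2 difference of peak minus naive stayed near 0. For windows it was -0.0464 with 2 Mb ends, -0.0186 with windows of at least 5 reads and -0.0190 to 0.0908 with a library left out. For signal it was -0.0927 with 2 Mb ends, -0.0497 with windows over 2000 reads kept and 0.00688 with 10 Mb ends. With a library left out it was -0.0529 to 0.0312. By replicate number (replicate block) the mean is by arithmetic the same, 0.04 and -0.01, and the 2 pairs differed in sign, at -0.034 and 0.106 for windows and -0.076 and 0.054 for signal.

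Same-numbered libraries deviated together (correlation 0.465 over bins, 0.141 over genes and 0.398 over windows), but no source says what the numbers share. With a replicate block, limma called 3940 distal windows, 150 higher and 3790 lower at peak (7.46%, against 7.49% of all), and 24 distal genes (1.45%, against 1.99%). The edgeR test with the block called 2686 distal windows (5.09%, against 5.25% of all), 83 genes (5.02%, against 5.02%) and 3 bins (3.16%, against 5.51%); the cause was not tested. Leaving out a library gave 0 to 84 distal bins, 0 to 958 windows and 0 genes. Counts of distal RNA-seq genes past 2-fold, 115 to 216, stayed within 1.5 times of 159. At 200 or more counts, 76 distal genes were higher (12.3%, against 11.1% of all) and 39 lower (6.29%, against 6.01%). In the main setting the counts were 85 and 74. Upper quartile scaling moved the median log2 ratio of all RNA-seq genes to -0.14, against -0.0027. It gave 72 distal genes higher (9.90%, against 9.97% of all) and 90 lower (12.4%, against 11.7%). With 2 libraries per condition, differences smaller than the spread between replicates are not detectable.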

Other observations

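The 10 highest distal windows with at most 2000 reads were taken among those with reads in all 4 libraries. Windows within 1000 bp of a higher listed one were passed over, so neighbours inside the pile-up stretch at Tmem267 are not counted. Of these 10, 1 lay in that stretch and 4 between chr13:119596451 and 119609750. Those 4 are in the same gene and over 100 kb from the stretch. In these 4, signal was 37.3 to 127 and 183 to 352 in peak libraries and 77.2 to 207 and 239 to 527 in naive libraries. A window in R3hdm2 (chr10:127493301-127493350) had a signal of 24.0 and 102 in peak libraries and 103 and 618 in naive libraries. A window in Lars2, the mitochondrial leucyl-tRNA synthetase (chr9:123461951-123462000), had 214 and 207 in peak libraries and 96.5 and 376 in naive libraries. A window near the end of chromosome 7 (chr7:144791851-144791900) had 21.5 and 104 in peak and 64.7 and 525 in naive libraries. None passed the test of peak against naive in limma, with adjusted p of 0.818 or more.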
